A study of Mus musculus with 6 samples.

Results

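The globin genes encode the protein chains of hemoglobin. Of the 23417 genes in the table, 6 rows carry a listed globin symbol. Hba-a1 and Hba-a2 encode the adult alpha chain, Hbb-b1, Hbb-bs and Hbb-bt the adult beta chain, and Hbb-bh1 a beta-like chain of the embryo. They were taken by symbol and are described singly and summed per chain, because near-identical copies share reads. They had been proposed with their values in these libraries known, and selected on their FPKM in T618I-containing libraries against the others, so these differences are given as a description, without a test.

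Adult hemoglobin joins alpha with beta chains, and each chain holds a heme group that binds oxygen. In mouse, the alpha genes and the embryonic Hba-x lie together on chromosome 11 and the beta genes with the embryonic Hbb-y and Hbb-bh1 on chromosome 7. The erythroid transcription factors GATA1 and KLF1 act at both loci, and globin messages accumulate as progenitors commit to red cell formation. Distal enhancers of the alpha genes lie in introns of the neighbouring Nprl3.

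RNA came from Kit-positive cells of C57BL/6 mouse bone marrow, selected with CD117 beads, transduced with retrovirus, sorted and grown overnight with the cytokines FLT3, IL-3, IL-6 and mSCF; erythropoietin is not among those the labels name. The libraries were T618I, T618I/Q741 and T618I/W791 (a membrane-proximal mutation of CSF3R, which encodes the G-CSF receptor, alone or with a truncated tail), Q741 and W791 (truncations alone) and vector (empty control), with 1 library each. All groups share the strain, the bead selection and the transduction. The labels give no age, no separate animals or cultures and no construct with the unmutated receptor, so every SD over constructs mixes construct and library. Levels are in FPKM, a unit that divides fragment numbers by transcript length and library depth. Depth, approximated from the value of 1 fragment, was about 19700000 to 24700000 fragments in the T618I-containing libraries, 19500000 to 20400000 in the truncations and 42900000 in vector. The selection marker Kit stood at 32.6 FPKM in T618I, 15.1 in T618I/Q741 and 12.6 in T618I/W791, against 23.3 in Q741, 30.1 in W791 and 34.5 in vector. In bulk RNA, fewer cells of a type and less RNA per cell cannot be told apart.

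The sequences before the adult globin genes are shown because 4 of the 6 members, on 2 chromosomes as far as placed, stood high in the same libraries. RefSeq (GRCm38.p6) gave a promoter for 4 of the 6 members, Hba-a1, Hba-a2, Hbb-bs and Hbb-bt. The 250 bases before the RefSeq start of 3 of them follow, 5′ to 3′ on the gene's strand. The GENCODE M21 positions given below start each of these 3 genes inside its window, so motif positions hold for the RefSeq start only. Capitals mark 4 motifs searched on both strands. CACCC holds the letters that KLF1 is known to bind. CCAAT is a common promoter box. The letters ATATAA resemble the element near many starts that binds the general initiation machinery. GATAA is known to bind GATA1 and its relatives.
Hba-a1 (chr11:32283422-32283671, plus strand): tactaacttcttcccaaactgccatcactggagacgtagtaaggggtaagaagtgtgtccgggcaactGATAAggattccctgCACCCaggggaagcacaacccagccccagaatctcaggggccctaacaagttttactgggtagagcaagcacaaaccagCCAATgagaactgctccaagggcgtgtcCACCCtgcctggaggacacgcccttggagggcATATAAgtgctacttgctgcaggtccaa
Hbb-bs (chr7:103827929-103828178, minus strand): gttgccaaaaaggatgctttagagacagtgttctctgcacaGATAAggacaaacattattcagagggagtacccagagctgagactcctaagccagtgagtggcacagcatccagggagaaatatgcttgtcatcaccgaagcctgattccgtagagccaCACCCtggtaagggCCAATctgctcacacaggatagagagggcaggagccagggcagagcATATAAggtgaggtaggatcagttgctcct
Hbb-bt (chr7:103813924-103814173, minus strand): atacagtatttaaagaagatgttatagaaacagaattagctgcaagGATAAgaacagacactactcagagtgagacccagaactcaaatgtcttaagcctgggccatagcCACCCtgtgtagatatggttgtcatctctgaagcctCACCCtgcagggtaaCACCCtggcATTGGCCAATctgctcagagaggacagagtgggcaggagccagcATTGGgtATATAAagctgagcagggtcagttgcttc
Hba-a2 shares an unbroken run of 247 of these bases with Hba-a1, whereas Hbb-bs and Hbb-bt were 69.3% identical over the window. All 4 promoters held all 4 motifs on the gene's strand, also that of Hba-a1, which was not among the 4 high members. The embryonic Hba-x and Hbb-y held CACCC and GATAA too, the GATAA of Hbb-y on the opposite strand. Hba-x had no CCAAT and Hbb-y no ATATAA. The ATATAA lay 28 to 31 bases before the start, and the first base of the nearest upstream CCAAT on that strand lay at -88 in Hba-a1, -91 in Hba-a2, -76 in Hbb-bs and -75 in Hbb-bt. In the beta genes a CACCC began at -90 in Hbb-bs and at -89 in Hbb-bt, and Hbb-bt held 3 CACCC in all. The CCAAT of Hbb-bt directly follows a copy on the opposite strand, written ATTGG, with no shared base. Among 32851 RefSeq promoter windows of the same length, 52.0% held CACCC, 33.8% CCAAT, 9.10% ATATAA and 22.6% GATAA, and 1.36% held the first 3 of these together. The motifs were chosen with these sequences in view, and a match is not a binding site.

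Hba-a2 (chromosome 11, 32296489 to 32297298, GENCODE M21 on mm10) carried nearly all of the alpha signal. It was at 25.8 FPKM in T618I, 24.5 in T618I/Q741 and 116 in T618I/W791, against 0.109 in Q741, 0.229 in W791 and 0.654 in vector. The T618I-containing libraries lay above all others without overlap, and T618I/W791 stood apart at the top. On the log2(FPKM + 1) scale the T618I-containing mean was 5.21 above the truncation mean.

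Hba-a1 (chromosome 11, 32283511 to 32284465), the other copy, was at 0.0551 FPKM in T618I, 0.175 in T618I/Q741 and 0.00951 in T618I/W791, against 0.111 in Q741, 0.231 in W791 and 0.0000143 in vector. None of these exceeds about 3.1 fragments. The coding sequences of the copies differ at 1 of 429 bases in GENCODE M21, and 86.9% of the 50-base stretches of the longest coding Hba-a2 transcript occur in that of Hba-a1. Hba-a1 held 0.00817% to 0.712% of alpha FPKM in the T618I-containing libraries, 50.3% with Q741, 50.2% with W791 and 0.00218% with vector. The Q741 and W791 shares rest on about 3 and 6 alpha fragments. That is too few to tell whether the division of reads between the copies differed among libraries. The value of either copy alone is uncertain.

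**Figure D1:**
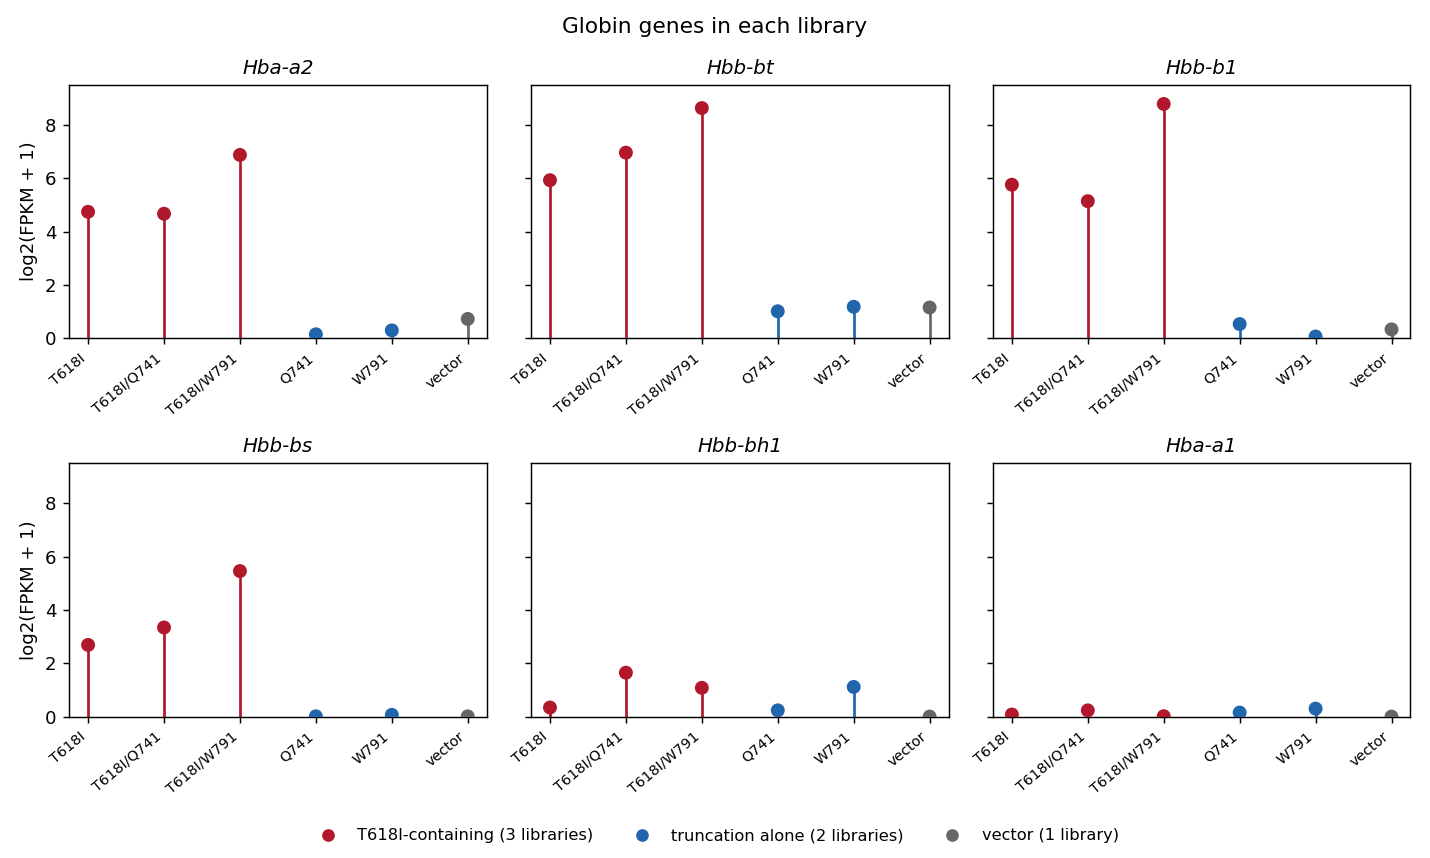
Each panel gives log2(FPKM + 1) of 1 globin gene (vertical axis) in the 6 libraries (horizontal axis, 1 point per library, colours for the groups). Hba-a2, Hbb-bt, Hbb-b1 and Hbb-bs are higher in the 3 T618I-containing libraries than in Q741, W791 and vector, while Hbb-bh1 is also at 1.16 FPKM with W791 and Hba-a1 stays near 0 throughout.

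Hbb-bt (chromosome 7, 103812524 to 103813996), the minor adult beta gene of this strain, was at 59.9 FPKM in T618I, 124 in T618I/Q741 and 396 in T618I/W791, against 1.02 in Q741, 1.27 in W791 and 1.23 in vector. It was the only member at 1 FPKM or more in every library, and its 3 values without T618I lay close together. Its mean was 193 ± 179 FPKM in T618I-containing libraries and 1.14 ± 0.177 in truncations (SD, n = 3 and n = 2), a log2 difference of 6.08.

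Hbb-b1, the symbol of the major beta gene of strains with the other beta haplotype, was at 53.1 FPKM in T618I, 34.3 in T618I/Q741 and 441 in T618I/W791, against 0.448 in Q741, 0.0480 in W791 and 0.262 in vector. It had the widest member difference between T618I/W791 and W791, 8.72 on the log2 scale. GENCODE M21 has no gene of this symbol, and how the authors' annotation placed it was not stated in any source used.

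Hbb-bs (chromosome 7, 103826534 to 103828096), the major adult beta gene of this strain, was listed lower: 5.44 FPKM in T618I, 9.14 in T618I/Q741 and 42.9 in T618I/W791, against 0.00754 in Q741, 0.0470 in W791 and 0.00671 in vector. Its values without T618I correspond to less than 1 fragment each. Its coding sequence differs from that of Hbb-bt at 1 of 444 bases, and 65.8% of its 50-base stretches occur in Hbb-bt. Of beta FPKM, Hbb-bs took 4.58% in T618I, 5.40% in T618I/Q741 and 4.87% in T618I/W791. Hbb-b1 took 44.8%, 20.3% and 50.04% in the same libraries, and Hbb-bt 50.4%, 73.1% and 44.96%. The Hbb-bs share was thus similar in those 3 libraries while that of Hbb-b1 was lowest with T618I/Q741.

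Summed per chain, alpha was at 25.8 FPKM in T618I, 24.6 in T618I/Q741 and 116 in T618I/W791, against 0.220 in Q741, 0.459 in W791 and 0.654 in vector. Beta was at 119 FPKM in T618I, 169 in T618I/Q741 and 881 in T618I/W791, against 1.65 in Q741, 2.53 in W791 and 1.49 in vector. Both chains had the order T618I/W791 far above the other T618I-containing libraries, and these far above the rest. T618I/W791 held 4.72 times the alpha and 5.21 times the beta of T618I/Q741. Between T618I/Q741 and T618I the ratio was 0.954 for alpha and 1.42 for beta. With 1 library per construct there is no spread against which to judge the order within a group.

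The T618I-containing mean was 389.5 ± 426 FPKM for beta, against 2.09 ± 0.619 in truncations, and 55.6 ± 52.6 FPKM for alpha, against 0.340 ± 0.169 (SD, n = 3 and n = 2). On the log2(FPKM + 1) scale the differences were 6.42 for beta and 5.02 for alpha. T618I/W791 weighs heavily in them: without it they were 5.55 and 4.30. The alpha sums without T618I rest on about 3 fragments with Q741, 6 with W791 and 16 with vector, so no fold is given for alpha against the truncations. The beta sums there rest on about 23, 32 and 45 fragments, and those of the T618I-containing libraries on about 1635, 2915 and 12559.

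**Figure D2:**
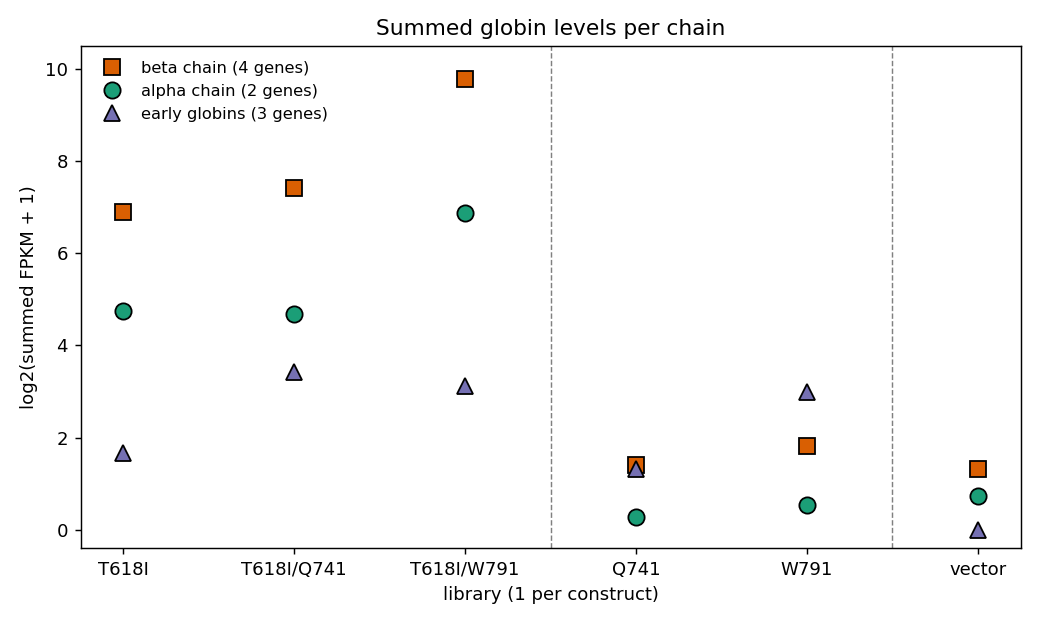
The vertical axis gives log2 of summed FPKM plus 1 for the beta chain (squares), the alpha chain (circles) and the early globins Hbb-bh1, Hbb-y and Hba-x (triangles, with Hbb-bh1 counted also in beta) in each library on the horizontal axis, with dashed lines between groups. Beta and alpha separate the T618I-containing libraries from the others, and the early globins do not: W791 at 6.97 FPKM lies beside T618I/W791 at 7.70.

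Beta exceeded alpha in every library. The beta to alpha ratio was 4.59 in T618I, 6.86 in T618I/Q741 and 7.56 in T618I/W791, against 7.51 in Q741, 5.50 in W791 and 2.28 in vector. Without Hbb-bh1 the W791 ratio was 2.97, and the alpha sums under the Q741 and W791 ratios rest on about 3 and 6 fragments. The ratio moved far less among the T618I-containing libraries than the chain sums did. All 6 globins together made up 0.0310% of all FPKM in T618I, 0.0394% in T618I/Q741 and 0.207% in T618I/W791, against 0.000426% in Q741, 0.000661% in W791 and 0.000468% in vector. Even with T618I/W791, where Hbb-b1 ranked 154 and Hbb-bt 169 among all rows, hemoglobin messages were a small part of the RNA.

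Each library with T618I was set beside a partner without it. For the double mutants the partner carried the same truncation, and for T618I it was the empty vector, which carries no receptor construct. T618I and vector differed by 5.59 on the log2(FPKM + 1) scale for beta and 4.02 for alpha. T618I/Q741 and Q741 differed by 6.00 for beta and 4.39 for alpha, and T618I/W791 and W791 by 7.97 and 6.33. As linear ratios of beta FPKM these are 79.5-fold, 102-fold and 349-fold, each from a single pair without replicates. Without the embryonic Hbb-bh1, which held 46.0% of the W791 beta sum, they are 79.3-fold, 113-fold and 646-fold. Of the 6 members, 4, 5 and 4 were higher by 2-fold or more in the pairs against vector, Q741 and W791, where 2.73%, 4.74% and 2.34% of the 11188 genes that passed the filter (1 FPKM or more in 2 libraries) were. In those pairs 0, 0 and 0 members were lower by 2-fold or more, beside 1.27%, 1.89% and 4.26% of the genes. Hba-a2, Hbb-b1, Hbb-bs and Hbb-bt did not overlap between libraries with and without T618I, all being higher with it, beside 8.04% of all genes tested. Since these values were known when the members were chosen, nothing is read from the counts. In all, 5 of the 6 members passed the filter on low values, and Hba-a1 did not.

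The embryonic Hbb-bh1 (chromosome 7, 103841637 to 103843164) followed another pattern. It was at 0.266 FPKM in T618I, 2.13 in T618I/Q741 and 1.11 in T618I/W791, against 0.177 in Q741, 1.16 in W791 and a listed 0 in vector. The groups overlapped, and W791 without T618I was level with T618I/W791. Its coding sequence is 74.6% identical to that of Hbb-bs and shares no 50-base stretch with it.

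The other early globins had a similar profile. Hbb-y, the embryonic epsilon-like gene (chromosome 7, 103851749 to 103853216), was at 1.41 FPKM in T618I, 5.53 in T618I/Q741 and 4.93 in T618I/W791, against 1.12 in Q741, 3.55 in W791 and a listed 0 in vector. Hba-x, the embryonic zeta-like gene (chromosome 11, 32276400 to 32278116), was at 0.517 FPKM in T618I, 2.04 in T618I/Q741 and 1.66 in T618I/W791, against 0.199 in Q741, 2.26 in W791 and a listed 0 in vector. W791, T618I/Q741 and T618I/W791 were high for all 3 genes, T618I and Q741 low, and vector at 0. Between T618I-containing libraries and truncations limma gave adjusted p = 0.906 for Hbb-y (0.55 ± 0.55, log2 difference ± SE) and adjusted p = 0.994 for Hba-x (0.22 ± 0.51).

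The early globin values are small but not single reads. Hbb-y corresponded to about 17.6 fragments in T618I, 86.5 in T618I/Q741 and 63.6 in T618I/W791, against 14.4 in Q741, 43.8 in W791 and 0 in vector, the most deeply sequenced library. A count of 0 there allows up to 3 fragments, which is 0.111 FPKM for Hbb-y, in counting error only. No gene at 5 FPKM or more in the 5 other libraries was listed at 0 with vector, while 1 such gene was listed at 0 with T618I/W791 (Actr3) and 3 with Q741 (Snora15, Snora70 and Snord22). No early globin was at 5 FPKM or more in all those libraries, so that check does not cover zeros at their level. Early globins made up 1.498% of the FPKM of all members and early globins in T618I, 4.82% in T618I/Q741 and 0.767% in T618I/W791, against 46.9% in Q741 and 79.3% in W791. Hbq1a and Hbq1b, theta-like genes of the alpha cluster, stayed below 1 FPKM in every library, and Hbb-bh2 was listed at 0 in all.

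**Figure D3:**
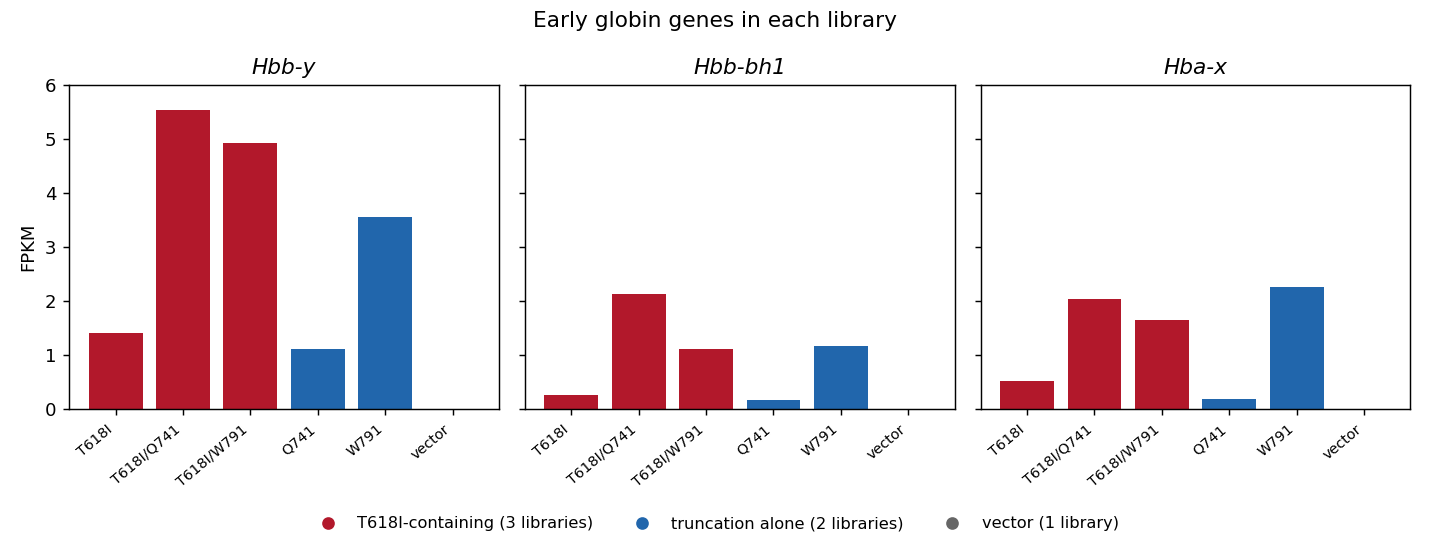
Bars give FPKM (vertical axis) of the embryonic globin genes Hbb-y, Hbb-bh1 and Hba-x in each of the 6 libraries (horizontal axis, colours for the groups). All 3 are high with T618I/Q741, T618I/W791 and W791, low with T618I and Q741, and listed at 0 with vector.

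Genes next to the alpha cluster stood at like levels with and without T618I. Nprl3 (chromosome 11, 32225628 to 32267707), the listed neighbour nearest to Hba-x, was at 5.69 FPKM in T618I, 4.68 in T618I/Q741 and 4.96 in T618I/W791, against 4.29 in Q741, 5.25 in W791 and 5.92 in vector. Its log2 difference between T618I-containing libraries and truncations was 0.08 ± 0.15 (SE, limma adjusted p = 0.980). The DNA repair glycosylase gene Mpg (-0.07 ± 0.17, adjusted p = 0.994) and the splicing gene Snrnp25 (-0.11 ± 0.21, adjusted p = 0.980) gave differences as small. The listed neighbours Rhbdf1 and Il9r did not reach 1 FPKM in any library.

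Among genes that regulate globins, none passed the test between T618I-containing libraries and truncations (0 of 21 tested in either direction). Over all genes 0.179% were called higher and 0.0179% lower. Of the 21, 12 lay above 0, beside 3880 of all 11188 genes tested, with a median log2 difference of 0.03 beside -0.07. The groups did not overlap for 6 higher and 3 lower regulators, beside 9.22% and 21.1% of all genes. Klf1, the erythroid factor of the CACCC box, was at 5.29 FPKM in T618I, 4.98 in T618I/Q741 and 16.9 in T618I/W791, against 0.708 in Q741, 0.950 in W791 and 0.679 in vector. Its groups did not overlap, and T618I/W791 was highest, as for the globins (2.26 ± 0.51, adjusted p = 0.304). Gata1 was at 29.1 FPKM in T618I, 17.9 in T618I/Q741 and 35.5 in T618I/W791, against 7.22 in Q741, 13.1 in W791 and 11.6 in vector (1.35 ± 0.36, adjusted p = 0.381). Zfpm1, which encodes the GATA1 partner FOG1, averaged 18.9 ± 6.28 FPKM in T618I-containing libraries and 6.62 ± 3.06 in truncations (adjusted p = 0.367). Bcl11a, a repressor of embryonic globins, was at 9.17 FPKM in T618I, 5.17 in T618I/Q741 and 9.72 in T618I/W791, against 9.04 in Q741, 10.7 in W791 and 24.0 in vector. Bcl11a was highest in vector, a difference of -1.51 ± 0.35 for T618I-containing libraries against vector that did not pass (limma adjusted p = 0.331). Whether Bcl11a relates to the early globin values was not tested. In the fit that blocks on the tail, Klf1, Gata1 and Zfpm1 were called higher, and without T618I/W791 Klf1 was.

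Heme synthesis and iron supply genes gave 0 of 22 calls. Cpox, coproporphyrinogen oxidase, was at 35.9 FPKM in T618I, 35.1 in T618I/Q741 and 121 in T618I/W791, against 8.98 in Q741, 9.41 in W791 and 8.32 in vector (2.42 ± 0.56, adjusted p = 0.321). Within the T618I-containing libraries it was like summed alpha, with T618I and T618I/Q741 level and T618I/W791 above. In the pairs against vector, Q741 and W791 it differed by less, at 1.98, 1.85 and 3.55 beside 4.02, 4.39 and 6.33 for alpha (log2 scale). Without T618I/W791 it was called higher. Alas2, the erythroid form of the first enzyme of the pathway, was at 1.04 FPKM in T618I, 0.621 in T618I/Q741 and 3.89 in T618I/W791, against 0.0912 in Q741, 0.116 in W791 and 0.0646 in vector (adjusted p = 0.561). Genes that handle hemoglobin or its breakdown gave 0 of 11 calls, with Blvrb, biliverdin reductase B, at 62.9 ± 18.1 FPKM in T618I-containing libraries and 34.4 ± 0.321 in truncations (adjusted p = 0.435). The oxidoreductase gene Nxn averaged 12.1 ± 1.43 FPKM in T618I-containing libraries and 8.04 ± 0.283 in truncations (adjusted p = 0.399). Hmox1, heme oxygenase 1, averaged 107 ± 43.0 FPKM in T618I-containing libraries and 78.1 ± 1.17 in truncations (adjusted p = 0.866).

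Erythroid surface, membrane and enzyme genes gave 0 of 29 calls, although 26 lay above 0, beside 3880 of all 11188 genes tested. The median log2 difference of the 29 was 1.27, beside -0.07 over all genes tested. The claudin gene Cldn13 was at 4.61 FPKM in T618I, 3.65 in T618I/Q741 and 11.2 in T618I/W791, against 0.0997 in Q741, a listed 0 in W791 and 0.170 in vector (2.70 ± 0.43, adjusted p = 0.176). The carbonic anhydrase genes Car2 (81.8 ± 82.2 FPKM in T618I-containing libraries against 8.50 ± 1.70 in truncations, adjusted p = 0.417) and Car1 (11.5 ± 12.1 in T618I-containing libraries against 0.519 ± 0.288 in truncations, adjusted p = 0.416) were likewise highest with T618I/W791. Epor, the erythropoietin receptor gene, was at 7.57 FPKM in T618I, 3.78 in T618I/Q741 and 9.02 in T618I/W791, against 1.27 in Q741, 3.18 in W791 and 2.03 in vector (adjusted p = 0.463). In the tail-blocked fit Cldn13 and Epor were called higher, as was Cldn13 without T618I/W791 or with vector counted with the truncations.

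Over the 4 erythroid lists together, 83 genes were tested. Before adjustment, 25 were higher and 1 lower at limma p below 0.05, beside 4.16% and 4.86% of all genes. The 25 were 17 of the 29 surface, membrane and enzyme genes, 4 of the 21 regulators, 2 of the 22 heme and iron genes and 2 of the 11 handling genes. Median log2 differences in those lists were 1.27, 0.03, 0.18 and 0.02. The groups did not overlap for 36 higher and 7 lower genes, beside 9.22% and 21.1% of all genes. Of the 36, 21 were surface, membrane and enzyme genes. T618I/W791 held the highest value for 22 of the 29 surface, membrane and enzyme genes (75.9%, against 33.7% of all genes tested). In 19 of the 29 the order was T618I/W791, T618I, T618I/Q741, then the rest, an order that 1.45% of all genes had. Many of the 29 lay below 1 FPKM in the libraries without T618I. The count of highest values and this order were chosen with the values in view, so nothing is read from either share. Hba-a2 and Hbb-b1 had that order too, Hba-a2 narrowly, at 25.8 FPKM in T618I and 24.5 in T618I/Q741. Hbb-bt and Hbb-bs stood higher with T618I/Q741 than with T618I, as did summed beta, at 169 against 119 FPKM. Copies of a chain share reads, so the order of a single copy is uncertain. Against vector 0 of the 83 passed, where 0.134% of all genes were called higher and 0.0268% lower. Before adjustment 15 of the 83 were higher and 3 lower at limma p below 0.05, beside 378 and 574 of all 11188 genes tested.

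**Figure D4:**
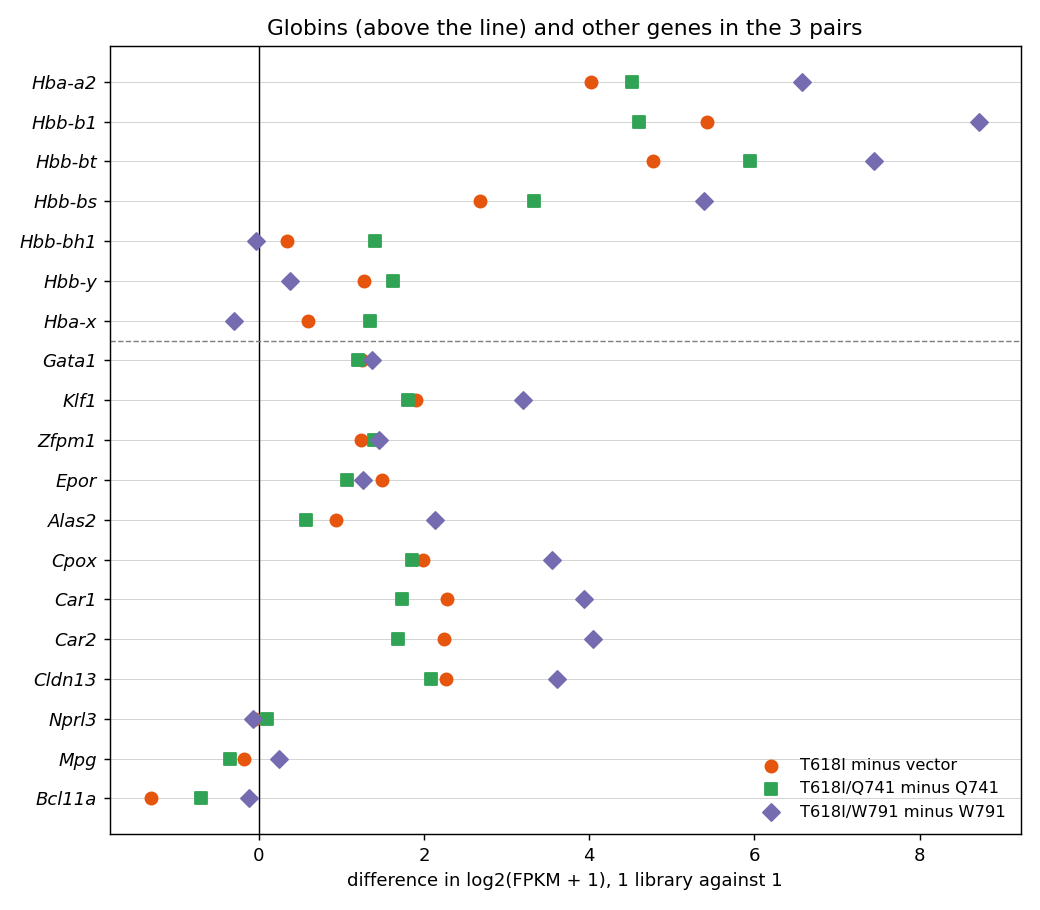
The horizontal axis gives the difference in log2(FPKM + 1) between 1 library with T618I and its partner without, for 7 globin genes above the dashed line and for regulators, heme, red cell and neighbouring genes below it. Hba-a2, Hbb-b1, Hbb-bt and Hbb-bs lie between 2.68 and 8.72 in all 3 pairs and, within each pair, beyond Klf1, Cpox, Car1, Car2 and Cldn13, while Nprl3 and Mpg lie near 0.

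Other cell types also differed between the libraries, and their part in the globin values was not tested. Of all 11188 genes tested, 3880 had a log2 difference above 0 between T618I-containing libraries and truncations. Megakaryocyte and platelet genes, a lineage that shares GATA1 with red cells, lay above 0 in 15 of 15 cases (0 called). Their summed level was 1679 to 3068 FPKM in T618I-containing libraries, 406 to 1147 in truncations and 903 in vector, highest with T618I and not with T618I/W791, as was Pf4, platelet factor 4, at 1191 ± 463 FPKM in T618I-containing libraries and 375 ± 245 in truncations. The neutrophil granule list summed to 21608 to 38204 FPKM in T618I-containing libraries, against 5371 to 5894 in truncations and 4248 in vector. S100a8 and S100a9 made up most of the T618I-containing sums, at 11020 to 15815 and 7240 to 13781 FPKM. They were called higher among 14 (limma adjusted p = 0.00786 and 0.0279). Of the 14, 13 lay above 0, with Prtn3 (0.04) and Ctsg (0.03) hardly different. Mpo was lower, at 553 to 588 FPKM in T618I-containing libraries against 801 to 839 in truncations. Mast cell and basophil genes (0 of 12 called), monocyte and macrophage genes (0 of 11) and progenitor genes (0 of 10) lay above 0 in 4, 1 and 1 cases. For mast cell and basophil genes that is near the share over all genes tested. Summed FPKM in T618I-containing libraries, truncations and vector was 781 to 2939, 1905 to 2136 and 2258 for mast cell and basophil genes. For monocyte and macrophage genes it was 3716 to 7766, 7005 to 7639 and 7898, and for progenitor genes 361 to 919, 732 to 790 and 832. In T618I/W791, where globins were highest, each of these 3 sums was the lowest of the 6. Slc4a1 (band 3), 1 of the 29 surface, membrane and enzyme genes tested, was low throughout. It was at 1.77 FPKM in T618I, 0.461 in T618I/Q741 and 5.64 in T618I/W791, against 0.0199 in Q741, 0.0920 in W791 and a listed 0 in vector. Of the 29, 26 lay above 0, and Alox15 (-1.24 ± 0.41, log2 difference ± SE) and Mgst3 (-0.32 ± 0.14) were among those below.

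Likeness of other genes' profiles to the chain sums was the root mean square difference of centred log2(FPKM + 1) over the 6 libraries, so a small value means a similar rise and fall of the same size. Alpha and beta sums differed by 0.86 from each other. Closest to alpha were the endothelial lipase gene Lipg (0.86), BC117090 of the stefin A cluster (0.95), the sialomucin gene Podxl (0.95), S100a9 (1.04), Il1bos (1.10), the neutrophil surface gene Cd177 (1.11), Asprv1 (1.14) and Car2 (1.15). Closest to beta were Lipg (0.90), the stefin A genes Stfa3 (1.12), Stfa1 (1.22), Stfa2l1 (1.33), BC100530 (1.42) and BC117090 (1.66), then Asprv1 (1.67) and Cd177 (1.73). All points are the same 6 libraries, so the measure is small for any gene with a T618I difference of that size.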

How the data were processed

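The authors deposited a table of 23444 rows with a gene symbol and a single value for each library, with no unit in the header. The deposited values were taken to be FPKM, since Cufflinks is named in the submitters' processing notes and the columns sum to between 439505 and 492025. TopHat and the build mm10 are named there too; the sources used here give no versions, annotation or strand setting. Column abbreviations of the double mutants were matched to titles by their letters.

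Rows whose symbol had become a date (27) were left out. Values were used as log2(FPKM + 1) without scaling, which understates the change of low genes. The 11188 genes reaching 1 FPKM in 2 or more libraries were fitted with limma 3.58.1 in R 4.3.3, as 3 group means over 6 libraries (3 residual degrees of freedom, trended prior), with Benjamini-Hochberg adjustment and a threshold of 0.05. The fit assumes that vector, with 1 library, has the spread of the other groups, and p-values measure the spread between constructs. The fit was tested on simulated data. Single pairs are described at 2-fold, with no test.

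Depth was approximated from the lowest step among 2153 genes with 1 GENCODE M21 transcript of at least 1500 bases. Fragment numbers use full transcript lengths and are rough. The Hbb-b1 part of the beta sum used the Hbb-bt length.

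The members and gene lists were chosen with earlier results of these data known. From each erythroid and neighbour list, up to 3 tested genes with the largest absolute difference between T618I-containing libraries and truncations are named (1 gene that the rule picks is not reported here), with Gata1, Klf1, Epor, Alas2, Bcl11a and Kit, with Pf4 from the platelet list and the 8 genes nearest to each chain in profile. Rhbdf1, Il9r, Hbq1a, Hbq1b, Hbb-bh2, Slc4a1, Alox15, Mgst3, S100a8, Mpo, Prtn3, Ctsg, Actr3, Snora15, Snora70 and Snord22 were named after their values were seen. Listed symbols without a matching row, such as Ahsp, were not analysed here. Alternatives were another pseudocount, no filter, median-ratio scaling, leaving out libraries, vector counted with the truncations and the tail as a block.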

Additional observations from a re-analysis of the deposited data

Results flagged for a closer look

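Hbb-bh1 and Hba-a1 had differences of opposite sign on adding T618I to different backgrounds. For Hbb-bh1 the log2(FPKM + 1) difference was 0.34 for T618I against vector, 1.41 for T618I/Q741 against Q741 and -0.03 for T618I/W791 against W791. The T618I difference exceeded the T618I/W791 difference by 0.374, and the T618I/Q741 difference exceeded it by 1.45. For Hba-a1 the differences in the same 3 pairs were 0.08, 0.08 and -0.29. The T618I difference exceeded the T618I/W791 difference by 0.363 and the T618I/Q741 difference exceeded it by 0.368, at about 3.1 fragments or fewer per library. Each difference is 1 library against 1, and the differences between pairs were not tested.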

How the results depend on the processing

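The differences of summed alpha and beta globins between T618I-containing libraries and truncations kept their direction under every alternative run. Alpha, at 5.02, was 6.64 with a pseudocount of 0.1 and 4.30 to 5.39 with a library left out. Beta, at 6.42, was 6.93 with a pseudocount of 0.1 and 5.55 to 6.99 with a library left out. Without Hbb-bh1 the alpha to beta ratio of W791 was 0.337 in place of 0.182. Of the 83 erythroid genes tested, 0 were called higher. With a library left out 0 to 3 were, the 3 being Cldn13, Cpox and Klf1 without T618I/W791. With vector counted with the truncations 1 was (Cldn13), and with the tail as a block, a fit with 2 residual degrees of freedom, 5 were (Cldn13, Epor, Gata1, Klf1 and Zfpm1). The cause was not tested. Over all genes, 20 were called higher and 2 lower, against 75 and 22 with vector counted with the truncations, 83 and 36 with the tail block, 3 and 2 with no filter, and 2 to 30 higher and 0 to 5 lower with a library left out. No erythroid gene was called lower under any of these settings. The tail block is the one pairing the constructs allow, since the labels give no replicate numbers. Depth limits alpha globin in the truncations, at about 3 and 6 fragments.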

Other observations

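The early globins shared a profile that no other row of the table met. Of 23417 rows, 3 were below 0.1 FPKM with vector and at 1 FPKM or more with T618I/Q741, T618I/W791 and W791, and these were Hba-x, Hbb-bh1 and Hbb-y. The pattern and both limits were chosen after the values were seen. The genes lie on 2 chromosomes, and with W791 their sum of 6.97 FPKM exceeded that of the adult beta genes, at 1.36 FPKM.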
